A study of Mus musculus with 6 samples.

Results

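Cells chosen by a marker rule as inflammatory monocytes of mouse rhabdoid tumors were described in 6 single-cell RNA-seq libraries, each made from the tumor of 1 mouse. A cell counted as a monocyte when it had at least 200 genes, at most 25% mitochondrial UMIs (unique molecular identifiers, each standing for 1 captured RNA molecule), and UMIs of at least 2 of the 3 genes Ly6c2, Ccr2 and F13a1. It also had to hold under 20 UMIs of C1qa, C1qb and C1qc together and under 300 UMIs of S100a8 and S100a9 together per 10000 UMIs, fewer than 3 UMIs of Mpo, and no UMI of Cd3d, Cd3e, Cd3g or Cd79a. Of 22163 kept cells, 1275 met this rule. They numbered 21, 976 and 97 in MYC spinal tumors 1, 2 and 3 and 36, 135 and 10 in eRT tumors 1, 2 and 3, and values below keep this order. MYC spinal tumor 2 alone held 76.5% of all monocytes, so no value was pooled over tumors. Because these measured genes chose the cells, their levels are given as a description, and where a fit includes them its outcome is not read as a result.

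The study asked which embryonic cells give rise to rhabdoid tumors of the MYC group, tumors defined by loss of Smarcb1, which encodes a subunit of the SWI/SNF complex that moves nucleosomes. All mice carried a floxed Smarcb1 gene (Smarcb1 fl/fl) and a tamoxifen-inducible Cre, and their mothers received tamoxifen once, at 50 mg/kg and 6.5 days after conception. The 3 MYC spinal tumors came from Rosa26-creERT2 mice aged 19, 26 and 17 weeks, in which a ubiquitous promoter drives Cre. The 3 extracranial tumors (eRT) came from 1 Rosa26 mouse with a gland tumor (tumor 1, 17 weeks) and from 2 mice with Cre under the Sox2 promoter, with tumors of the jaw (tumor 2, 29 weeks) and the shoulder (tumor 3, 22 weeks). The same gene was targeted in every mouse and there was no healthy tissue, so the monocytes can be compared between tumors but not with normal monocytes. Driver line, tumor site and tumor type overlap in the eRT group and cannot be told apart.

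Inflammatory monocytes are born in the bone marrow from granulocyte-monocyte progenitors and leave it through the chemokine receptor Ccr2, which senses Ccl2 and Ccl7 released by inflamed tissue. In mice they are marked by a high level of the GPI-anchored surface protein Ly6C, encoded in part by Ly6c2, and by coagulation factor XIII A chain (F13a1), Plac8 and the proteoglycan versican (Vcan). After entry into a tumor they can switch on cytokine genes, interferon-response genes or antigen presentation through MHC class II, and many become macrophages that lose Ly6c2 and gain complement C1q.

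Depth differed between tumors, and the monocytes of MYC spinal tumor 2 were the shallowest. A monocyte held a median of 3407, 973 and 2090 UMIs in MYC spinal and 2163, 1469 and 1498 in eRT tumors. Summed over monocytes, 68178, 1083870 and 296671 UMIs stood behind the MYC spinal values and 108528, 220974 and 14673 UMIs behind the eRT values. Levels are given as CPM, the UMIs of a gene per 1000000 UMIs of these sums. In these 3′ libraries a molecule counts once whatever the length of the gene. The CPM of 3 UMIs, the limit that a count of 0 allows, was 44.0, 2.77 and 10.1 CPM in MYC spinal and 27.6, 13.6 and 204 CPM in eRT tumors. Values of eRT tumor 3, with 10 monocytes, are therefore coarse. Lymphocytes of the same tumor (kept cells with at least 2 UMIs of Cd3d, Cd3e, Cd3g and Cd79a together) served as the measure of free RNA. Doublets and RNA of their own can add to it. Their median depth was 1905, 863 and 2402 UMIs in MYC spinal and 2647, 1319 and 1309 in eRT tumors. Cells are numbered in the deposited tables, so barcodes shared between libraries could not be counted. A doublet caller marked 3, 0, 1, 9, 4 and 4 cells of the 6 tumors and no monocyte, too few to count as working. Smarcb1 itself was read at 44.0, 32.3 and 33.7 CPM in MYC spinal and 36.9, 22.6 and 0 CPM in eRT tumors. This rests on at most 35 UMIs in any tumor, so its loss could not be checked in monocytes.

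The genes that chose the cells are described first, and the label is then checked on Plac8 and Vcan, which did not choose them. Ly6c2 (chr15:75108158-75111970 in GRCm38) was read at 2200.1, 3160 and 735 CPM in MYC spinal and 267, 792 and 341 CPM in eRT tumors. Ccr2 (chr9:124101950-124113557) was read at 748, 509 and 313 CPM in MYC spinal and 553, 747 and 818 CPM in eRT tumors. F13a1 (chr13:36867178-37050244) stood lower in MYC spinal tumors 1 and 3 than elsewhere, at 337, 1087 and 334 CPM in MYC spinal and 921, 769 and 613 CPM in eRT tumors. Ly6c2 was thus higher in each MYC spinal tumor but the third than in any eRT tumor, while Ccr2 and F13a1 overlapped between the types. Any 2 of the 3 genes sufficed, and the combinations differed between tumors. Cells with Ccr2 and F13a1 but no Ly6c2 made up 9.52%, 4.00% and 27.8% of monocytes in MYC spinal and 63.9%, 43.7% and 60% in eRT tumors. Cells with Ly6c2 and F13a1 but no Ccr2 led in MYC spinal tumor 2 at 54.3%, and cells with Ly6c2 and Ccr2 but no F13a1 led in MYC spinal tumor 1 at 61.9%. All 3 genes were found together in 23.8%, 20.3% and 22.7% of monocytes of MYC spinal and 13.9%, 18.5% and 0% of those of the eRT tumors.

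**Figure D1:**
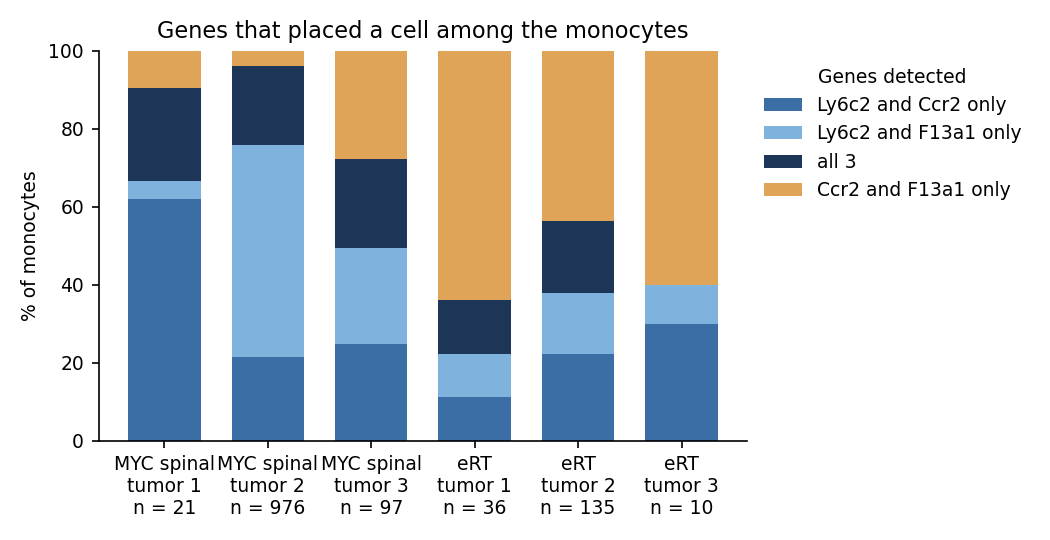
Share of monocytes (%, vertical axis) in each tumor that entered through each combination of the genes Ly6c2, Ccr2 and F13a1, with the number of monocytes under each bar. Cells without Ly6c2 take 63.9% of the monocytes in eRT tumor 1 and 4.00% in MYC spinal tumor 2.

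A UMI of Ly6c2 was found in 90.5%, 96.0% and 72.2% of monocytes in MYC spinal and 36.1%, 56.3% and 40% in eRT tumors. Among lymphocytes, a class in which some T cells are known to carry Ly6C, the shares were 39.2%, 27.3% and 35.1% of cells in MYC spinal and 44%, 13.1% and 9.25% in eRT tumors. In eRT tumor 1 the share among monocytes was not above that among lymphocytes, so Ly6c2 does not bear out the name there. Ccr2 and F13a1 chose the cells, so their presence cannot bear it out either. F13a1, which also chose the cells, had a UMI in 38.1%, 78.6% and 75.3% of monocytes in MYC spinal and 88.9%, 77.8% and 70% in eRT tumors and in at most 3.90% of lymphocytes of any tumor. Plac8 (chr5:100553725-100572245), a small cysteine-rich protein, was read at 4899, 2507 and 1382 CPM in MYC spinal and 931, 1896 and 341 CPM in eRT tumors. It had a UMI in 81.0%, 84.7% and 81.4% of monocytes in MYC spinal and 75%, 66.7% and 30% in eRT tumors, and in 33.9%, 45.9% and 39.2% of lymphocytes in MYC spinal and 40%, 10.8% and 6.36% in eRT tumors. Vcan (chr13:89655312-89742509) was sparse, at 44.0, 84.0 and 47.2 CPM in MYC spinal and 73.7, 204 and 0 CPM in eRT tumors. It was found in a larger share of monocytes than of lymphocytes in every tumor except eRT tumor 3, where it had no UMI in either. Plac8 and Vcan are independent of the rule, and their shares lay above those of lymphocytes wherever a UMI was seen. In eRT tumor 3 the name is weakly borne out, since Plac8 had a UMI in 30% of monocytes and Vcan had none. Apoe, a macrophage marker, stood there at 12540 CPM. In MYC spinal tumor 1 Plac8 was at 4899 CPM, but macrophage markers summed to 21869 CPM. In eRT tumor 1 the genes that monocytes gain on the way to macrophages summed to 26085 CPM in monocytes. Its complement-high macrophages, defined below, held 25272 CPM of them, so the name is uncertain there too. Ly6c2 is also uncertain by count, since its neighbor Ly6c1, an endothelial gene, shares long stretches with it. Over the last 300 bases of the 3 annotated Ly6c2 transcripts, the longest stretch shared with Ly6c1 ran 124, 117 and 72 bases. The study's methods name a 75-cycle sequencing kit and give no length for the read on the transcript.

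Close to the edges of the rule, 81, 1000 and 429 cells of MYC spinal and 121, 325 and 85 cells of the eRT tumors met every other condition with only 1 of the 3 genes. In MYC spinal tumor 2, where 2 genes placed 778 cells and all 3 placed 198, these near misses were about as many as the monocytes. The cut on Mpo removed 175 cells with at least 2 of the genes in MYC spinal tumor 2 and 3 in MYC spinal tumor 3. The cut on C1q removed most in eRT tumor 3, where 101 cells with at least 2 of the genes held 40 or more C1q UMIs per 10000 and 1 cell lay between 20 and 40, against 10 monocytes kept. Of the monocytes, 0, 1, 5, 5, 2 and 0 cells of the 6 tumors lay between 10 and 20 C1q UMIs per 10000. The cut on S100a8 and S100a9 removed 111 cells at 600 or more per 10000 and 14 between 300 and 600 in MYC spinal tumor 2, where 9 monocytes lay between 150 and 300.

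Markers of other cells were low in the monocytes with named exceptions. The T cell list had UMIs only in eRT tumor 2, at 4.53 CPM, and the B cell list ran from 0 to 96.9 CPM, with Cd3d, Cd3e, Cd3g and Cd79a at 0 by rule. The basophil and mast cell list was at 0 except in MYC spinal tumor 2, at 24.0 CPM, the endothelial list reached 127 CPM and the erythroid list 119.8 CPM. Natural killer genes summed to 1173 CPM in MYC spinal tumor 1, of which the granzyme Gzma gave 572 CPM, against 2685 CPM in lymphocytes of that tumor and at most 258 CPM in monocytes of any other. Fibroblast and tumor genes summed to 1203 CPM in MYC spinal tumor 3, where lymphocytes held 800.4 CPM, and to at most 31.7 CPM elsewhere. Dendritic cell lists gave 1917 to 3612 CPM for conventional cells, nearly all of it Cst3, a gene monocytes share, and 491 to 1393 CPM for plasmacytoid cells. Monocytes with UMIs of at least 2 markers of another cell type numbered 3, 10 and 6 in MYC spinal and 1, 9 and 0 in eRT tumors. Macrophage markers, among them Apoe, Ms4a7 and Trem2, summed to 21869, 216 and 978 CPM in MYC spinal and 6349, 4919 and 14312 CPM in eRT tumors, with C1q held down by the rule.

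Neutrophil genes had the largest sum among the marker lists of other cells in MYC spinal tumor 2. The neutrophil list summed to 73.3, 6126 and 954 CPM in MYC spinal and 1143, 2113 and 68.2 CPM in eRT tumors, and to 39023 CPM in lymphocytes of MYC spinal tumor 2. S100a8 had a UMI in 84.9% of monocytes and 81.0% of lymphocytes there, and the granule peptide gene Camp in 44.1% and 40.5%. By CPM, both genes were lower in the monocytes than in the lymphocytes of that tumor, where the rule caps S100a8 and S100a9. With shares so close to those of lymphocytes, these genes are not read as made by the monocytes. What part of them is free RNA or doublets was not tested. The median mitochondrial share of a monocyte was 1.49%, 2.36% and 2.07% in MYC spinal and 1.42%, 1.02% and 1.52% in eRT tumors.

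Apart from ribosomal protein and mitochondrial genes, the genes of highest mean level were Malat1, Lyz2, Tmsb4x, Cd74, Actb, Fth1, Ftl1, Apoe, B2m and Cxcl2. Lyz2, the lysozyme of myeloid cells, was read at 21796, 9495 and 8679.6 CPM in MYC spinal and 12412, 19301 and 21945 CPM in eRT tumors. Lymphocytes held 110.3, 1367 and 2791 CPM in MYC spinal and 1319.8, 534 and 5156 CPM in eRT tumors. Lyz2 was thus above its level in lymphocytes in every tumor. Cd74, Apoe and Cxcl2 varied most among the 10, each by over an order of magnitude between tumors, and they belong to the gene groups described next.

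The gene groups, shown here by 1 promoter each for 3 of them, read out different inputs: cytokine and chemokine genes answer to NF-kappaB, interferon-stimulated genes to an interferon-stimulated response element (ISRE), and MHC class II genes to a promoter module that includes a CCAAT box. The 250 bases before the start of each gene were taken from RefSeq on GRCm38.p6 and searched on both strands. Cxcl2 is the chemokine gene with the highest level in any monocytes here, and its window is chr5:90903649-90903898 on the plus strand. Isg15 encodes a ubiquitin-like protein induced by interferon, and its window is chr4:156200819-156201068 on the minus strand. H2-Aa encodes an MHC class II alpha chain, and its window is chr17:34287824-34288073 on the minus strand. Each is printed 5′ to 3′ on the strand of the gene. Capitals mark the kappaB match in Cxcl2, the ISRE matches in Isg15 and the CCAAT box, which reads from the other strand, in H2-Aa.
Cxcl2: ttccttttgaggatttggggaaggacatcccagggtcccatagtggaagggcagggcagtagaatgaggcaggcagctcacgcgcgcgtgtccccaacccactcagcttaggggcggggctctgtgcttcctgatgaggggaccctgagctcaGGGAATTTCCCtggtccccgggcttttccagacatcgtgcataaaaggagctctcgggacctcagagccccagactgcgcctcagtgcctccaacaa
Isg15: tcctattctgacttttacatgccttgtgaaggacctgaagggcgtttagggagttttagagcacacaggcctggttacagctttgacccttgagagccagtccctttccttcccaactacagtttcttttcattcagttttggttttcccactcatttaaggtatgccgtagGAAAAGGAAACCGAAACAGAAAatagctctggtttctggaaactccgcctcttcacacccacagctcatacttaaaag
H2-Aa: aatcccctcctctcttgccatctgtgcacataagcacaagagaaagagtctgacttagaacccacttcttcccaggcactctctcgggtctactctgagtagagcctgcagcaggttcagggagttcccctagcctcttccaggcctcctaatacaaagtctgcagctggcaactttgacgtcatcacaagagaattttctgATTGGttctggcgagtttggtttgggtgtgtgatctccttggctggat
The kappaB consensus was found in 7 of 19 inflammatory promoters, those of Il6, Tgfb1, Ccl9, Cxcl1, Cxcl2, Cxcl3 and Cxcl10, and in 8.23% of all 27025 promoters. It was also found in 7 of 27 interferon-stimulated promoters and 2 of 10 of the MHC class II list, so it does not mark the inflammatory list alone. Of the 26 genes of the inflammatory list, 19 had a promoter matched by symbol, as had 27 of 35 interferon-stimulated genes and 10 of 14 genes of MHC class II presentation. The ISRE core (GAAA, any 2 bases, GAAA) was found in 16 of 27 interferon-stimulated promoters and in 3.46% of all, and in the Isg15 window 3 matches overlap. It was found in 1 inflammatory promoter and 1 of the MHC class II list. The letters CCAAT were found in 7 of 10 promoters of the MHC class II list and in 37.5% of all, with 4 of 19 inflammatory and 10 of 27 interferon-stimulated promoters. A match is a description of the letters, and no binding was measured.

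The share of monocytes differed more between tumors of 1 type than between the types. They made up 1.43%, 17.0% and 1.44% of kept cells in MYC spinal and 1.68%, 6.61% and 0.249% in eRT tumors. The exact binomial 95% interval, which covers counting error only, ran from 16.0% to 18.0% in MYC spinal tumor 2 and from 0.119% to 0.457% in eRT tumor 3. MYC spinal tumor 2 and eRT tumor 2 stood above the rest, and they belong to different types. The means were 6.62% ± 8.97 (SD, n = 3) for MYC spinal and 2.85% ± 3.34 (SD, n = 3) for eRT tumors. The difference did not exceed the spread between tumors (two-sided exact permutation test over 20 assignments, p = 0.700, where 0.1 is the smallest p this design allows). Without MYC spinal tumor 2 the difference, eRT minus MYC spinal, turned from -3.77 to 1.41 percentage points. Among myeloid cells (at least 3 of Lyz2, Tyrobp, Fcer1g and Ctss detected and no lymphocyte gene, or a monocyte by the rule) the monocyte share was 10.1%, 30.9% and 2.23% in MYC spinal and 1.84%, 13.9% and 0.315% in eRT tumors. The means of 14.4% ± 14.8 and 5.35% ± 7.45 (SD, n = 3 each) did not differ beyond that spread (exact permutation test, p = 0.500). Live cells had been sorted after dissociation, so these are shares of the cells that survived it, and a deeper cell is more likely to show 2 of the 3 genes. With every cell thinned to 500 UMIs, which left out 725 kept cells of MYC spinal tumor 2 and none elsewhere, the differences were -3.19 and -8.79 points.

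**Figure D2:**
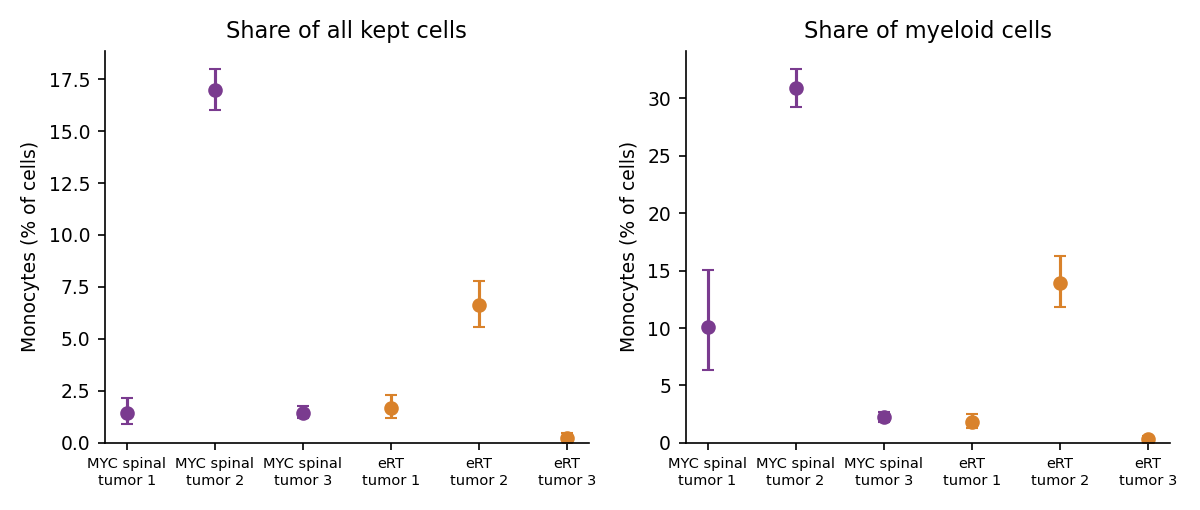
Monocytes as a share of all kept cells (left) and of myeloid cells (right), in % on axes that start at 0, 1 point per tumor with its exact binomial 95% interval, MYC spinal in purple and eRT in orange. MYC spinal tumor 2 stands highest in both panels, at 17.0% and 30.9%, and eRT tumor 3 lowest, at 0.249% and 0.315%.

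The monocytes of eRT and MYC spinal tumors were then compared gene by gene, with UMIs summed per tumor. No gene passed the threshold. The quasi-likelihood test of edgeR called 0 of 2215 genes (0%) at an adjusted p under 0.05. The smallest adjusted p was 0.499, and 95 genes had an unadjusted p under 0.05. DESeq2 called 3 genes, with Pf4 and Tnip3 higher and Rpl23a lower in eRT. On TMM-scaled CPM, 51 genes (2.3%) lay higher in all 3 eRT tumors than in any MYC spinal tumor and 120 genes (5.42%) lower, while CPM without TMM scaling gave 76 (3.43%) and 86 (3.88%). With 3 mice a side, the p-values measure the spread between these tumors. Log2 differences below are eRT minus MYC spinal with their SE, and none passed the threshold. Of all 2215 genes, 988 had an estimate above 0 and 1227 below, the background for the counts of list genes given below. Pf4, platelet factor 4, was read at 0, 0.923 and 57.3 CPM in MYC spinal and 1225, 208 and 749.7 CPM in eRT tumors, so every eRT tumor lay above every MYC spinal tumor. Its log2 difference was 4.95 ± 1.29. Tnip3, an inhibitor of NF-kappaB signaling, was read at 14.7, 5.54 and 6.74 CPM in MYC spinal and 73.7, 199 and 68.2 CPM in eRT tumors, a difference of 4.07 ± 0.71. Metrnl, a secreted meteorin-like protein, was read at 88.0, 106 and 104 CPM in MYC spinal and 350.1, 484 and 341 CPM in eRT tumors, a difference of 1.86 ± 0.47. These 3 genes did not overlap between tumor types with or without TMM scaling, although the value of eRT tumor 3 for Tnip3 rests on 1 UMI. Gm6377 and Ascc3 were the other genes of smallest p on the higher side, at 3.06 ± 0.58 and 2.24 ± 0.58. On the lower side stood Gstp1, Rpl23a, Cmc2, Rpl9 and Hmgn2. Cmc2, a mitochondrial assembly factor, was read at 29.3, 186 and 104 CPM in MYC spinal and 9.21, 4.53 and 68.2 CPM in eRT tumors, a difference of -3.66 ± 1.03. Rpl23a (-3.28 ± 0.67), Rpl9 (-1.81 ± 0.51), Hmgn2 (-2.39 ± 0.72) and Gstp1 (-2.88 ± 0.57) all have near-identical copies or pseudogenes among which reads can be split, so their counts are uncertain.

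**Figure D3:**
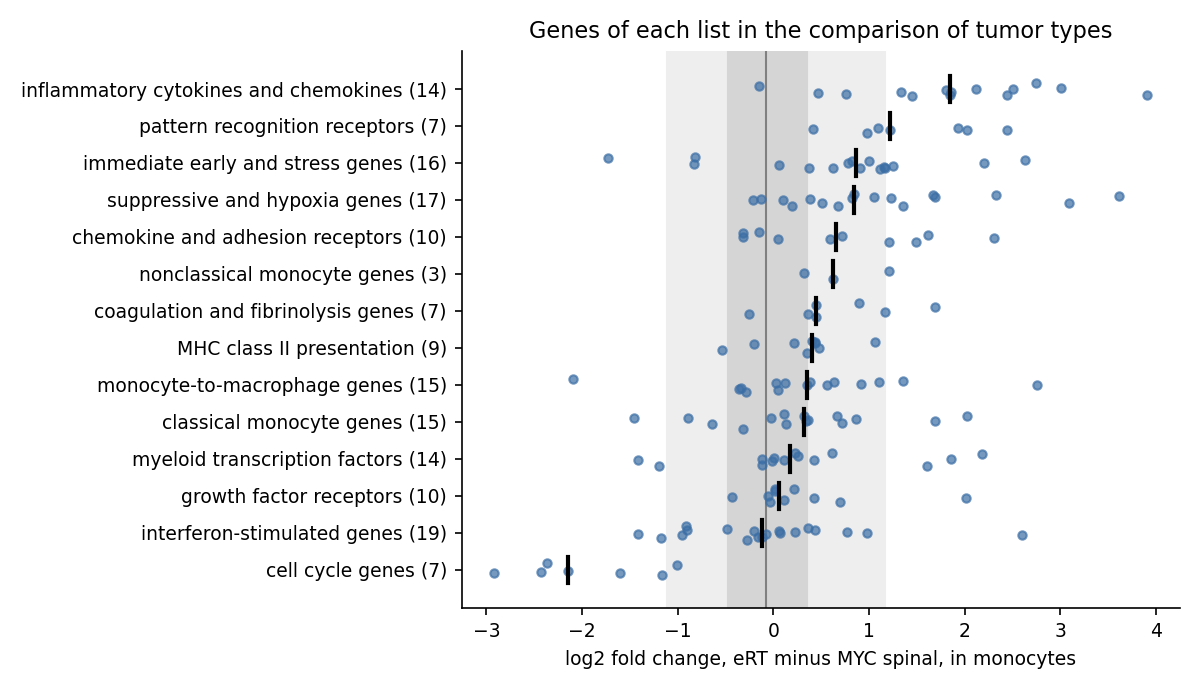
Estimated log2 fold change, eRT minus MYC spinal (horizontal axis), of the tested genes of 14 lists in monocytes, 1 point per gene, the number tested in parentheses and a black bar at each median. Grey bands hold the middle 50% and 90% of all 2215 genes tested; no gene passed the threshold, the inflammatory list has its median at 1.85 and the cell cycle list at -2.15, against -0.08 for all genes.

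Among monocytes, inflammatory ligands had their highest levels in those of eRT tumors 1 and 2. Of 26 cytokine and chemokine genes, 14 passed the filter on low counts and 0 passed the test. An estimate above 0 was found for 13 of them, beside 988 of all 2215 genes. The median log2 difference was 1.85, against -0.08 over all genes tested. The list summed to 6366, 1456 and 4406 CPM in MYC spinal and 12513, 40851 and 5929 CPM in eRT tumors. In lymphocytes it summed to 423, 515 and 2339 CPM in MYC spinal and 1727, 6125 and 1851 CPM in eRT tumors. In macrophages, defined below, it summed to 8113 and 7059 CPM in MYC spinal tumors 1 and 3 and 6901, 28819 and 11782 CPM in eRT tumors. In neutrophils, also defined below, it summed to 1732 and 3903 CPM in MYC spinal tumors 2 and 3 and 119144 CPM in eRT tumor 2. The high level of eRT tumor 2 was thus not particular to its monocytes. Monocytes of eRT tumor 3 lay within the range of the MYC spinal tumors, and those of MYC spinal tumor 2 were lowest. Cxcl2, a neutrophil-attracting chemokine, was read at 14.7, 182 and 1459.5 CPM in MYC spinal and 3382, 19717 and 1227 CPM in eRT tumors. Lymphocytes of eRT tumor 2 held 2675 CPM, and the log2 difference in monocytes was 3.91 ± 1.49. Il1b, the precursor of interleukin 1 beta, was read at 205, 35.1 and 364 CPM in MYC spinal and 498, 3792 and 136 CPM in eRT tumors. Its difference was 3.0 ± 1.21, and both genes overlapped between the types, with MYC spinal tumor 3 above eRT tumor 3. Ccl3, a chemokine that binds Ccr1, was read at 191, 122 and 121 CPM in MYC spinal and 313, 1819 and 204 CPM in eRT tumors, a difference of 2.51 ± 0.86. Its values did not overlap between types in CPM but did with TMM scaling, and that of eRT tumor 3 rests on 3 UMIs. Ccl9, a ligand of Ccr1, was read at 572, 245 and 748 CPM in MYC spinal and 1474, 1625 and 954 CPM in eRT tumors, a difference of 1.33 ± 0.53. Ccl6, of the same family, was read at 660, 341 and 182 CPM in MYC spinal and 1225, 1367 and 749.7 CPM in eRT tumors, a difference of 1.45 ± 0.59. Ccl6 and Ccl9 did not overlap between types with or without TMM scaling. With TMM scaling they were 2 of 14 tested genes with every eRT tumor higher, beside 2.3% of all genes. Ccl2 and Ccl7 are ligands of Ccr2 itself. Ccl2 was read at 601, 203 and 506 CPM in MYC spinal and 1668, 2602 and 136 CPM in eRT tumors. Ccl7 was read at 440, 6.46 and 40.4 CPM in MYC spinal and 977, 1620.1 and 68.2 CPM in eRT tumors. For both, eRT tumors 1 and 2 were highest and eRT tumor 3 was below MYC spinal tumor 1. Tnf, Il1a, Cxcl1 and Cxcl3 were highest in eRT tumor 2, at 281, 176, 484 and 652 CPM, and did not pass the filter.

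Receptors for microbes and damaged cells had a summed level of 1848, 669 and 1342 CPM in MYC spinal and 3391, 6009.8 and 2317 CPM in eRT tumors. Of 20 such genes, 7 were tested, all 7 had an estimate above 0 (beside 988 of all 2215 genes), 0 passed, and the median was 1.22. The sums of the eRT tumors lay above those of the MYC spinal tumors. The lowest of them, in eRT tumor 3, comes from 10 monocytes, where 3 UMIs are 204 CPM. The sum of MYC spinal tumor 1 has a Poisson 95% interval of 1540 to 2200 CPM. Whether the gap between these tumors exceeds counting error was not tested. Cd14, the co-receptor for lipopolysaccharide, was read at 763, 181 and 452 CPM in MYC spinal and 1815, 2923 and 818 CPM in eRT tumors and differed by 2.02 ± 0.68. It did not overlap between types in CPM but did with TMM scaling. Clec4e, the receptor Mincle, was read at 103, 94.1 and 91.0 CPM in MYC spinal and 221, 1140.4 and 136 CPM in eRT tumors and differed by 2.44 ± 0.81, without overlap under either scaling. Lymphocytes of eRT tumor 2 held 159.8 CPM of it. Its value in eRT tumor 3 is below the 204 CPM of 3 UMIs, so this separation is coarse. With TMM scaling Clec4e was 1 of 7 tested genes with every eRT tumor higher, beside 2.3% of all genes. Among 20 chemokine and adhesion receptors, 10 were tested, 7 had an estimate above 0 and 0 passed (median 0.65). C5ar1, the receptor of the complement peptide C5a, was read at 293, 8.30 and 87.6 CPM in MYC spinal and 931, 448 and 341 CPM in eRT tumors. It differed by 2.30 ± 1.01, without overlap under either scaling. With TMM scaling C5ar1 was 1 of 10 tested genes with every eRT tumor higher, beside 2.3% of all genes. Ccr1, which binds Ccl3 and Ccl9, overlapped between the types, at 293, 33.2 and 64.0 CPM in MYC spinal and 322, 385 and 273 CPM in eRT tumors. Cxcr4, which retains cells in the marrow, stood at 568.3 CPM in MYC spinal tumor 2, against 371 CPM in lymphocytes there and at most 76.9 CPM in monocytes of the other tumors. Of 18 growth factor receptors, 10 were tested with a median of 0.06, near that of all genes, and 0 passed. Csf1r, the receptor that keeps monocytes and macrophages alive, was read at 543, 115 and 125 CPM in MYC spinal and 239.6, 208 and 409 CPM in eRT tumors. Il1r2, a decoy receptor for interleukin 1, had the largest estimate of that list at 2.02 ± 0.79.

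Interferon-stimulated genes differed between tumors of the same type. Of 35 genes, 19 were tested, 8 had an estimate above 0 and 0 passed, with a median of -0.12. The list summed to 15298, 2463 and 4574 CPM in MYC spinal and 7187, 5268 and 3817 CPM in eRT tumors. In lymphocytes, which make interferon-response RNA of their own, it summed to 9979, 2029.6 and 3619.7 CPM in MYC spinal and 5351, 3470 and 2419 CPM in eRT tumors. MYC spinal tumor 1 was highest and MYC spinal tumor 2 lowest in both kinds of cell. Isg15, whose promoter is printed above, was read at 1599, 15.7 and 313 CPM in MYC spinal and 931, 592.8 and 409 CPM in eRT tumors and differed by 0.06 ± 1.13. Irf7, the factor that amplifies the interferon response, ranged from 0 in eRT tumor 3 to 1789 CPM in MYC spinal tumor 1, and Ifit3 from 0 in MYC spinal tumor 2 and eRT tumor 3 to 484 CPM in MYC spinal tumor 1. Rsad2, the antiviral enzyme viperin, was read at 117, 2.77 and 135 CPM in MYC spinal and 811, 448 and 136 CPM in eRT tumors, a difference of 2.60 ± 1.11. The lowest eRT value rests on 2 UMIs, and the types overlapped with TMM scaling. Ly6e, whose protein limits entry of viruses, was read at 1877, 1037 and 951 CPM in MYC spinal and 663, 869 and 545 CPM in eRT tumors. Its difference was -0.95 ± 0.49, with every eRT tumor below every MYC spinal tumor under either scaling. With TMM scaling Ly6e was 1 of 19 tested genes of the list that lay so, beside 5.42% of all genes.

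Antigen presentation genes differed widely within both tumor types. The 14 genes of MHC class II presentation summed to 57482, 1754 and 9108 CPM in MYC spinal and 7712, 13608 and 64813 CPM in eRT tumors. MYC spinal tumor 1 was thus high and MYC spinal tumor 2 low among the MYC spinal tumors, and eRT tumor 3 was highest of all. Macrophage markers summed to 21869, 216 and 978 CPM in MYC spinal and 6349, 4919 and 14312 CPM in eRT tumors, also highest in MYC spinal tumor 1 and eRT tumor 3 and lowest in MYC spinal tumor 2. In lymphocytes the MHC class II list summed to 6001, 5138 and 14927 CPM in MYC spinal and 7061, 10342 and 20298 CPM in eRT tumors, and was highest in eRT tumor 3 there too. The part of macrophage RNA and of lymphocyte background in these levels was not tested. In macrophages the list summed to 51636 and 58017 CPM for MYC spinal and 46185, 33096 and 81855 CPM for eRT, with MYC spinal tumor 2 left out because it held 2 macrophages. Monocytes of MYC spinal tumor 1 and eRT tumor 3 stood near these levels and those of the other tumors below. Cd74, the invariant chain, was read at 28558, 447 and 3910.1 CPM in MYC spinal and 2562, 5819.7 and 33463 CPM in eRT tumors. H2-Aa was read at 6043, 102 and 1197 CPM in MYC spinal and 737, 1810.2 and 8383 CPM in eRT tumors. In MYC spinal tumors 2 and 3 the list was lower in monocytes than in lymphocytes, a class that holds B cells, which present antigen themselves. Ctss, the protease that trims the invariant chain, was highest in MYC spinal tumor 1, at 8126, 334 and 721 CPM in MYC spinal and 2608, 1525 and 2453 CPM in eRT tumors. Of 9 genes tested 0 passed, 7 had an estimate above 0, and the median was 0.40.

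**Figure D4:**
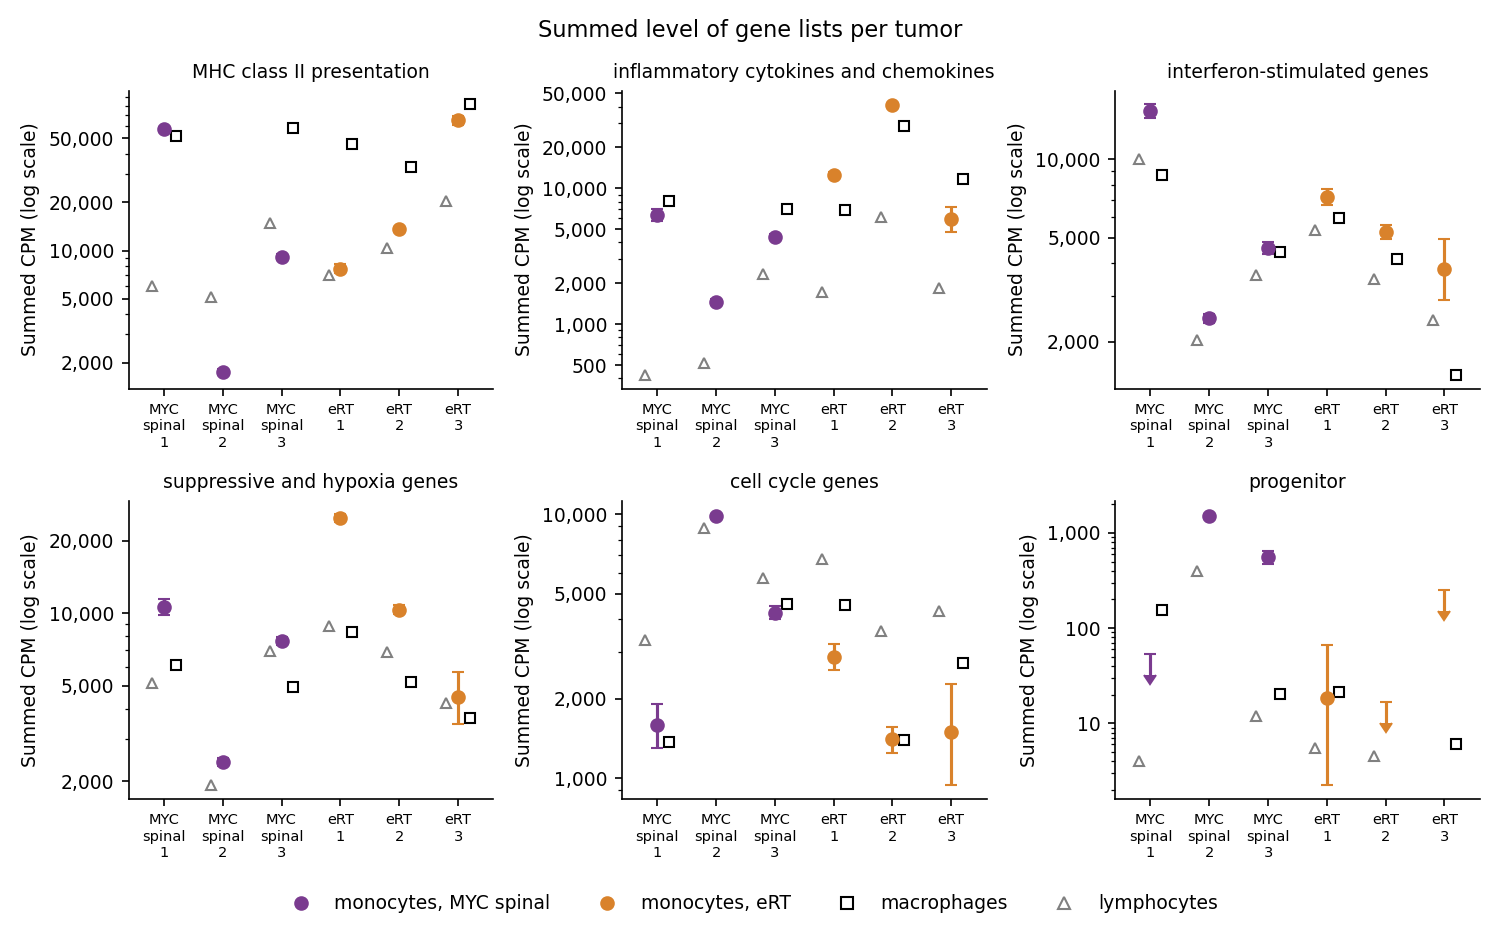
Summed level of 6 gene lists (CPM, log scale) in the monocytes of each tumor, filled circles with exact Poisson 95% intervals that cover counting error, beside macrophages (squares, not drawn for MYC spinal tumor 2) and lymphocytes (triangles); arrows give the upper bound where a list had no UMI, and a macrophage or lymphocyte level of 0 is not drawn. MHC class II presentation runs from 1754 CPM in MYC spinal tumor 2 to 64813 CPM in eRT tumor 3, and the progenitor list has its highest level in MYC spinal tumor 2, at 1494 CPM.

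Genes that monocytes gain on the way to macrophages were lowest in MYC spinal tumor 2. The list of 26 genes summed to 31784, 979 and 5450.5 CPM in MYC spinal and 26085, 8159 and 23308 CPM in eRT tumors. In lymphocytes it summed to 2080.5, 515 and 4110.5 CPM in MYC spinal and 6126, 1966 and 11184 CPM in eRT tumors. In macrophages it summed to 135870 and 15645 CPM in MYC spinal tumors 1 and 3 and 25272, 49727 and 51166 CPM in eRT tumors. Monocytes of eRT tumor 1 were thus no lower than its macrophages, while those of the other tumors compared stood below theirs. Apoe, the lipid carrier, was read at 20197, 131 and 627 CPM in MYC spinal and 5436, 4648 and 12540 CPM in eRT tumors. Lymphocytes of eRT tumor 3 held 7551 CPM, a background against which the last value is to be read. Spp1, osteopontin, was read at 1452, 24.0 and 1035 CPM in MYC spinal and 12974, 348 and 4703 CPM in eRT tumors. It was highest in eRT tumor 1, where lymphocytes held 720.4 CPM. Ms4a7, a gene of tissue macrophages, ran from 0.923 CPM in MYC spinal tumor 2 to 1090.4 CPM in eRT tumor 3. Fabp5, a fatty acid binding protein, was read at 807, 162 and 283 CPM in MYC spinal and 64.5, 154 and 0 CPM in eRT tumors. It was the only gene of the list with every eRT tumor below every MYC spinal tumor, under either scaling. That is 1 of 15 tested, beside 5.42% of all genes with TMM scaling and 3.88% without. The difference of Fabp5 was -2.10 ± 0.82. Its 0 in eRT tumor 3 allows up to 204 CPM, more than the value of MYC spinal tumor 2, so this separation is coarse. Of 15 genes tested 0 passed, and the median was 0.35.

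Suppressive and hypoxia genes were highest in eRT tumor 1. The list summed to 10619, 2411 and 7672 CPM in MYC spinal and 24795, 10349.6 and 4498 CPM in eRT tumors, against 8815 CPM in lymphocytes of eRT tumor 1. Arg1, the arginine-degrading enzyme of suppressive myeloid cells, was read at 689, 0 and 30.3 CPM in MYC spinal and 5224, 281 and 204 CPM in eRT tumors. Its difference was 3.09 ± 1.91, and lymphocytes of eRT tumor 1 held 253 CPM. Hmox1, heme oxygenase, was likewise highest in eRT tumor 1 at 1594 CPM against at most 172 CPM elsewhere. Hilpda, a lipid droplet gene induced by low oxygen, was read at 0, 12.0 and 111 CPM in MYC spinal and 995, 566 and 68.2 CPM in eRT tumors. It had the largest estimate of the list at 3.61 ± 1.13. Of 17 genes tested, 15 had an estimate above 0 (beside 988 of all 2215 genes) and 0 passed, with a median of 0.85. Ldha, a glycolytic enzyme, was read at 1349, 133 and 1058 CPM in MYC spinal and 2423, 909.6 and 818 CPM in eRT tumors. Lymphocytes held 893, 218 and 1093 CPM in MYC spinal and 1463, 1165 and 822 CPM in eRT tumors, so Ldha was no higher in monocytes in MYC spinal tumors 2 and 3 and eRT tumors 2 and 3. Of 16 coagulation and fibrinolysis genes, F13a1 not counted, 7 were tested with a median of 0.44 and 0 passed. F10, coagulation factor X, was read at 220, 86.7 and 125 CPM in MYC spinal and 212, 267 and 0 CPM in eRT tumors. Lymphocytes held at most 20.4 CPM of it, so F10 was above that background wherever it had a UMI. Thbs1, thrombospondin, was read at 279, 439 and 131 CPM in MYC spinal and 958, 1801 and 68.2 CPM in eRT tumors, highest in eRT tumors 2 and 1.

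The 16 classical monocyte genes summed to 42081, 19038 and 15819 CPM in MYC spinal and 26224, 38638 and 29374 CPM in eRT tumors. Of 15 tested, 10 had an estimate above 0, 0 passed, and the median was 0.32. Chil3, a chitinase-like protein of inflammatory monocytes, was read at 1804, 877 and 887 CPM in MYC spinal and 2635, 2946 and 68.2 CPM in eRT tumors. Ms4a6c, a membrane protein of monocytes, was read at 1965, 732 and 492 CPM in MYC spinal and 949, 1398 and 886 CPM in eRT tumors. Nonclassical genes, of the patrolling Ly6C-low monocytes, summed to 821, 849 and 489 CPM in MYC spinal and 525, 1073 and 1704 CPM in eRT tumors over 14 genes. In MYC spinal tumor 2 lymphocytes held 1107 CPM, more than the monocytes. Of these genes 3 were tested, with a median of 0.62, and 0 passed. Cx3cr1, the receptor of patrolling monocytes and of many macrophages, was highest in eRT tumor 3 at 477 CPM. Of 20 myeloid transcription factors, 14 were tested, 0 passed and the median was 0.17. Maf, a factor of macrophage identity, was read at 88.0, 21.2 and 13.5 CPM in MYC spinal and 101, 104 and 204 CPM in eRT tumors. Its values did not overlap between the types under either scaling, and the difference was 1.86 ± 0.70. The value of eRT tumor 3 rests on 3 UMIs. With TMM scaling 2 of the 14 tested factors lay higher in every eRT tumor, beside 2.3% of all genes. Klf4, a factor of monocyte differentiation, was highest in MYC spinal tumor 2 at 582 CPM, with 165 CPM in lymphocytes there. Spi1 (PU.1), which directs myeloid development, was read at 675, 197 and 418 CPM in MYC spinal and 617, 412 and 409 CPM in eRT tumors, a difference of 0.11 ± 0.52. Immediate early and stress genes, which tissue dissociation also induces, summed to 7524, 6309 and 6276 CPM in MYC spinal and 10928, 25673 and 5248 CPM in eRT tumors. Of 16 tested, 13 had an estimate above 0, 0 passed, and the median was 0.86. eRT tumor 2 was highest for this list as for the chemokines, and lymphocytes of that tumor were also the highest of the 6, at 9997 CPM. What dissociation contributed was not tested. Nfkbia, the inhibitor that NF-kappaB induces against itself, was read at 557, 267 and 1119 CPM in MYC spinal and 995, 6616 and 1090.4 CPM in eRT tumors. Lymphocytes of eRT tumor 2 held 2551 CPM.

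RNA of granule genes of the early marrow was found in monocytes of MYC spinal tumors 2 and 3. Any UMI of the granule proteins Mpo, Elane, Prtn3, Ctsg and Ms4a3, which granulocyte-monocyte progenitors make and mature monocytes silence, was found in 427 of 976 monocytes of MYC spinal tumor 2 (43.8%, exact binomial 95% interval 40.6% to 46.9%). Lymphocytes of MYC spinal tumor 2 had such a UMI in 22.0% (interval 16.5% to 28.2%), the background against which that share is to be read. In MYC spinal tumor 3 the share was 26.8% of 97 monocytes and 1.03% of 194 lymphocytes. The eRT tumors had 2 such monocytes of 36 in eRT tumor 1 and 0 of 135 in eRT tumor 2, which allows up to 2.22%, while 0 of 21 in MYC spinal tumor 1 and 0 of 10 in eRT tumor 3 allow up to 14.3% and 30%. Thinned to 500 UMIs, the shares were 30.4% of monocytes and 13.2% of lymphocytes in MYC spinal tumor 2 and 16.5% and 0% in MYC spinal tumor 3, so monocytes lay above lymphocytes at equal depth too. Prtn3, proteinase 3, was read at 636 CPM in MYC spinal tumor 2 and 300 CPM in MYC spinal tumor 3, with 98.8 and 1.69 CPM in lymphocytes. Elane, neutrophil elastase, was read at 445 and 145 CPM in the monocytes of these tumors. The progenitor list as a whole, Mpo capped by the rule, summed to 0, 1494 and 553 CPM in MYC spinal and 18.4, 0 and 0 CPM in eRT tumors.

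Cell cycle genes were also highest in MYC spinal tumors 2 and 3. The 20 genes summed to 1584, 9807 and 4240.4 CPM in MYC spinal and 2875, 1403 and 1499 CPM in eRT tumors. All 7 that were tested had an estimate below 0 (beside 1227 of all 2215 genes), with a median of -2.15, and 0 passed. Lymphocytes held 3331, 8855 and 5719.8 CPM in MYC spinal and 6780.2, 3600.3 and 4282 CPM in eRT tumors, more than monocytes in every tumor but MYC spinal tumor 2. Top2a, needed to separate chromosomes, had a UMI in 22.1% of monocytes and 21.0% of lymphocytes of MYC spinal tumor 2, so division of the monocytes themselves cannot be read from it. Hmgb2, a chromatin protein of cycling cells, was read at 293, 2727 and 684 CPM in MYC spinal and 442, 303 and 204 CPM in eRT tumors. Its difference was -2.15 ± 0.86, and lymphocytes of MYC spinal tumor 2 held 2626 CPM. Within MYC spinal tumor 3, where lymphocytes held the granule genes near 0, the 26 monocytes with a granule UMI held 8299.6 CPM of cell cycle genes and the 71 without held 2975 CPM. The same 26 cells held less MHC class II RNA (4880.5 against 10425 CPM), fewer inflammatory UMIs (3206 against 4779 CPM) and more Plac8 (2426 against 1057 CPM), at median depths of 2026 and 2240 UMIs. In MYC spinal tumor 2 the contrast was smaller, at 10521 and 8837 CPM for cell cycle genes, and the cells with a granule UMI were deeper (1423 against 704 UMIs). These are sums within 1 tumor each and carry no test. Leaving out every monocyte with a granule UMI, edgeR again called 0 genes between eRT and MYC spinal tumors.

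Against the complement-high macrophages of the same tumors (kept cells with at least 100 C1q UMIs per 10000), a contrast the rule itself used and for which no test is given, monocytes were higher for 197 of 1590 genes (12.4%) in each of the 5 tumors that held both kinds and lower for 131 (8.24%). MYC spinal tumor 2 could not enter, with 2 macrophages. Values over these 5 tumors are given for MYC spinal tumors 1 and 3 and then for the eRT tumors. Plac8 led the genes higher in monocytes and was read in them at 4899 and 1382 CPM in MYC spinal and 931, 1896 and 341 CPM in eRT tumors, and in macrophages at 198 and 26.2 CPM in MYC spinal and 22.4, 96.5 and 0.500 CPM in eRT tumors. Chil3 followed, with at most 102 CPM in macrophages of any tumor, and so did Cd24a, Clec4e, Emilin2, Anxa2, Isg20, Tmsb10, Trem1 and S100a10. Clec4e and Trem1 are receptors that amplify inflammation, while Anxa2 and S100a10 form a complex that binds plasminogen at the cell surface. Anxa2 was read in monocytes at 939 and 1146 CPM in MYC spinal and 1935, 1099.7 and 682 CPM in eRT tumors, and in macrophages at 161 and 459 CPM in MYC spinal and 600, 450.2 and 48.0 CPM in eRT tumors. Lower in monocytes were the chemokine genes Ccl8 and Ccl12, the B cell and macrophage receptor gene Cd72, and Zmynd15, Cadm1, Hpgds, Camk1, Pxdc1, Cd63 and Tmem176a. Ccl12 was read in monocytes at 264 and 6.74 CPM in MYC spinal and 516, 235 and 0 CPM in eRT tumors, and in macrophages at 2157 and 1123 CPM in MYC spinal and 2098, 3843 and 1927 CPM in eRT tumors. Of 9 measured genes of MHC class II presentation, 0 were higher and 1 was lower in monocytes in every tumor, near the shares of all genes. The median log2 ratio of these 9 genes was -1.03, against 0.09 over all genes. Higher in every tumor were 7 of 15 suppressive and hypoxia genes and 7 of 18 interferon-stimulated genes, beside 12.4% of all genes.

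Against neutrophils (at least 300 S100a8 and S100a9 UMIs per 10000 and few C1q UMIs), which 3 tumors held in number, monocytes were higher for 876 of 1443 genes (60.7%) in all 3 and lower for 164 (11.4%), again without a test. The genes with the largest excess were Ms4a6c, Ccl2, Pld4, H2-DMa, Fn1, Irf8, Ms4a4c, Ms4a6b, Rassf4 and Emp1. Irf8, the factor that steers progenitors from granulocytes to monocytes, was read at 252, 169 and 231 CPM in monocytes of MYC spinal tumors 2 and 3 and eRT tumor 2 and at 41.8, 36.2 and 54.9 CPM in neutrophils. Fn1, fibronectin, was read at 1147.7, 324 and 665 CPM in monocytes and 149, 79.6 and 84.5 CPM in neutrophils. Retnlg, Wfdc21, G0s2, Mrgpra2b, Hdc, Lcn2, Stfa1, BC018473, Pglyrp1 and Cxcr2 were lowest in monocytes relative to neutrophils. Cxcr2, the receptor through which Cxcl1 and Cxcl2 call neutrophils, was read at 0.923, 0 and 22.6 CPM in monocytes and 80.0, 65.1 and 372 CPM in neutrophils. All 8 measured genes of MHC class II presentation were higher in monocytes than in neutrophils in all 3 tumors.

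Whether eRT and MYC spinal tumors differ in another way in monocytes than in macrophages was tested in 1 model with the tumor as a block, in the 5 tumors that held both kinds. The interaction passed for 5 of 4264 genes (0.117%, edgeR quasi-likelihood test, adjusted p under 0.05), none of them a gene of the 14 lists. One of the 5 was F13a1, which helped to choose the monocytes and is not read as a result, which leaves 4. Dmkn and Apoc1 passed on the side where eRT minus MYC spinal is larger in monocytes, and Ccl5 and Ccnd2 on the other. Ccl5, a T cell attracting chemokine, was read in monocytes at 1848 and 442 CPM in MYC spinal and 18.4, 104 and 0 CPM in eRT tumors, and in macrophages at 267 and 68.7 CPM in MYC spinal and 109.8, 129 and 17.8 CPM in eRT tumors. The log2 difference between eRT and MYC spinal was -3.63 ± 0.67 in monocytes relative to macrophages (adjusted p = 0.00439). Ccnd2, cyclin D2, was read in monocytes at 44.0 and 273 CPM in MYC spinal and 27.6, 18.1 and 136 CPM in eRT tumors, and in macrophages at 34.4 and 21.7 CPM in MYC spinal and 57.7, 53.6 and 147 CPM in eRT tumors. The difference was -3.82 ± 0.82 (adjusted p = 0.0286). Single mice decided the calls. Without eRT tumor 3 the same model called 0 genes, without MYC spinal tumor 3 it called Apoc1 alone, and without MYC spinal tumor 1 it called 15 genes. Without eRT tumors 1 and 2 in turn it called 3 and 8 genes.

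Monocytes of 1 tumor also differed among themselves. In the 4 tumors with at least 30 monocytes (MYC spinal 2 and 3, eRT 1 and 2), genes were ranked by the variance of their counts beyond that of sampling, and Actb, Lyz2, Cd74, Fth1, Cxcl2, Apoe, H2-Ab1, Malat1, Chil3 and Crip1 had the highest median rank of 1947 genes. Among them are genes of antigen presentation (Cd74 and H2-Ab1) and inflammation (Cxcl2). MHC class II genes of the list had a median of 32.4 UMIs per 10000 in monocytes of eRT tumor 2, with quartiles at 20.2 and 97.6, and 4.44% of cells at 0. In MYC spinal tumor 2 the median was 10.4, with quartiles at 0 and 21.5 and 31.9% of cells at 0, where 1 UMI of a cell of median depth is worth 10.9 per 10000. The inflammatory list had no monocyte at 0 in MYC spinal tumor 1 and eRT tumors 1, 2 and 3, and its median ran from 11.8 in MYC spinal tumor 2 to 344 per 10000 in eRT tumor 2.

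**Figure D5:**
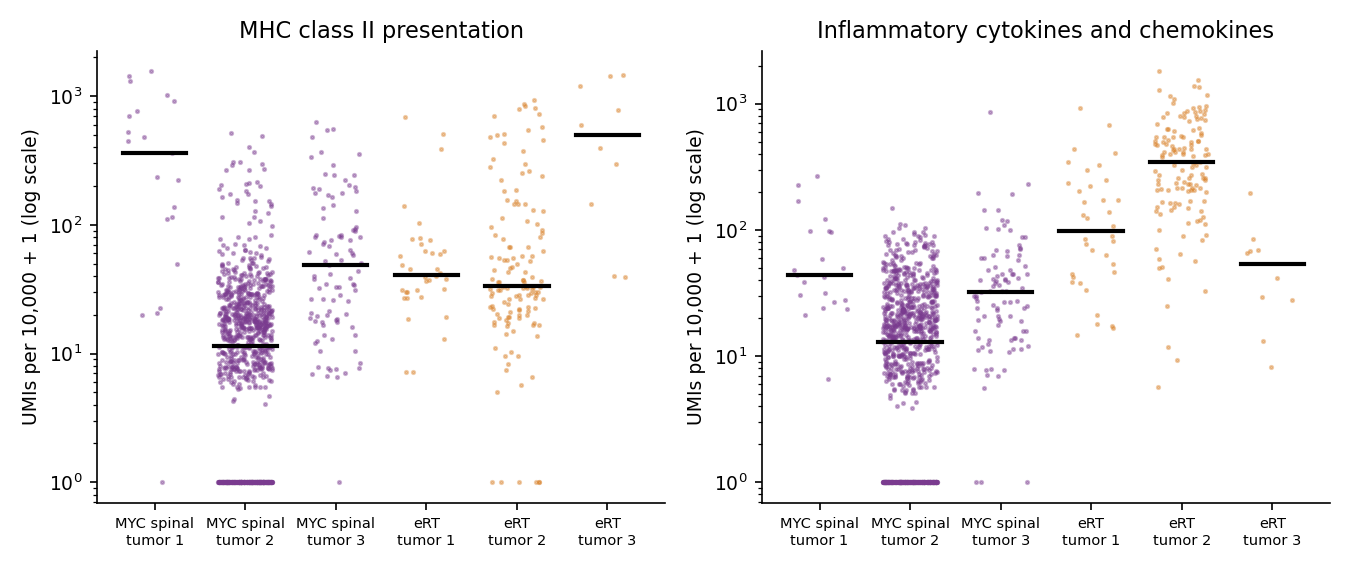
Summed UMIs per 10000 (plus 1, log scale) of MHC class II presentation genes (left) and of inflammatory cytokines and chemokines (right) in each monocyte, 1 point per cell, with the median of each tumor as a bar. Inflammatory medians are 42.6, 11.8 and 31.1 in MYC spinal and 96.6, 344 and 52.3 in eRT tumors, and cells with no UMI lie at 1.

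Monocytes with and without a UMI of Ly6c2 were compared within the tumors that held at least 10 of each, as sums with no test. In eRT tumor 1 the 13 cells with Ly6c2 held 6361 CPM of Chil3 and the 23 without held 1446 CPM. In the same order Arg1 stood at 1981 and 6259 CPM and Spp1 at 8723 and 14330 CPM. Plac8 was higher in the cells with Ly6c2 in eRT tumor 1 (1828 against 644 CPM), eRT tumor 2 (2434 against 1129.9 CPM) and MYC spinal tumor 3 (1504 against 1040.3 CPM) and lower in MYC spinal tumor 2 (2489.9 against 3069 CPM). Monocyte-to-macrophage genes were higher in the cells without Ly6c2 in all 4 of these tumors, at 27955 against 20226 CPM in eRT tumor 1, 8875 against 7657 CPM in eRT tumor 2, 7911 against 4575 CPM in MYC spinal tumor 3 and 1424 against 966 CPM in MYC spinal tumor 2. MHC class II genes were higher without Ly6c2 in MYC spinal tumors 3 and 2 and eRT tumor 2 and lower in eRT tumor 1 (6114 against 12722 CPM). Since Ly6c2 helped to choose these cells, those without it all carried both Ccr2 and F13a1. Median depths with and without Ly6c2 were 1974 and 2262 UMIs in eRT tumor 1 and 1515 and 1407 in eRT tumor 2. They were 2060.5 and 2206 UMIs in MYC spinal tumor 3. In MYC spinal tumor 2 the 39 cells without it were shallower than the 937 with it, at 548 against 989 UMIs.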

How the data were processed

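UMIs were counted per gene and cell in the tumors of 6 mice (10x 3′ libraries of dissociated, live-sorted cells, without red cells), 3 MYC spinal and 3 eRT, grouped by the labels. The authors deposited counts, 1 whole-number table of genes by numbered cells per tumor, made with Cell Ranger 2.0.2 on mm10 and reduced to genes found in at least 3 cells. The members and gene lists were chosen with earlier results of these data known. Cells were kept at 200 or more genes and at most 25% mitochondrial UMIs. The counts of the monocytes of each tumor were summed and tested with edgeR 4.0.16 in R 4.3.3 (quasi-likelihood test, TMM factors, filterByExpr, Benjamini-Hochberg adjustment over all genes tested, threshold 0.05), eRT against MYC spinal, and the interaction with macrophages with tumor as a block, for tumors with at least 10 cells of a kind. The edgeR tests were run on simulated counts with the same spread for every gene. This does not show how they perform at the spread of these tumors. Shares were compared by exact permutation tests (Python 3.11.15, scipy 1.17.1). Alternatives were DESeq2 1.42.0, no TMM factors, no filter, other cell rules, sex or mouse line as a covariate (sex from the study's methods), leaving out each tumor, and, chosen after seeing the data, leaving out monocytes with granule protease UMIs. Named genes were those of the rule and its markers, the 5 of smallest p per direction (or all past the threshold), the 10 of largest smallest log2 ratio (10 CPM added) per direction against macrophages and neutrophils, the 10 highest, the 10 most variable, and up to 4 per list, and others named were chosen after their values were seen. Lists were 14 pathway lists and 13 marker lists. Motifs were searched in RefSeq promoters. The study's test of single cells (MAST) was not used, since cells are not replicates. A gene that meets the naming rule but is withheld is not reported here. Depth is given with the results, and intervals and floors cover counting error only.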

Additional observations from a re-analysis of the deposited data

Results flagged for a closer look

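In 4 genes that had no part in choosing the cells, the difference between eRT and MYC spinal tumors was not the same in monocytes and macrophages by the test of the interaction itself (edgeR quasi-likelihood test, log2 units with SE, MYC spinal tumors 1 and 3 and all 3 eRT tumors, values in that order). Dmkn, a secreted protein best known from skin, differed by 6.97 ± 1.11 (adjusted p = 0.000791). In monocytes it was read at 29.3 and 175 CPM in MYC spinal and 18.4, 262 and 341 CPM in eRT tumors, and in macrophages at 0 and 78.5 CPM in MYC spinal and 0, 0 and 0.500 CPM in eRT tumors. The monocyte values of MYC spinal tumor 1 and eRT tumor 1 lie below the 44.0 and 27.6 CPM of 3 UMIs. That of eRT tumor 1 lies below both MYC spinal tumors. Apoc1, an apolipoprotein, differed by 5.65 ± 0.95 (adjusted p = 0.00117). In monocytes it was read at 88.0 and 0 CPM in MYC spinal and 92.1, 27.2 and 0 CPM in eRT tumors, and in macrophages at 624 and 0.747 CPM in MYC spinal and 18.1, 0 and 3.0 CPM in eRT tumors, so the macrophages of MYC spinal tumor 1 stand apart. Ccl5 differed by -3.63 ± 0.67 (adjusted p = 0.00439) and Ccnd2 by -3.82 ± 0.82 (adjusted p = 0.0286). Ccnd2 rests on at most 3 UMIs in monocytes of MYC spinal tumor 1 and of eRT tumors 1 and 3. Where tumors are at 0 UMIs, as macrophages of 3 tumors are for Dmkn, the size of the fitted value depends on the prior count. Over 16 alternatives each, Dmkn passed in 12, Apoc1 in 11, Ccl5 in 11 and Ccnd2 in 7. In MYC spinal tumor 1, where Ccl5 was highest in monocytes, natural killer markers stood at 1173 CPM in monocytes, and their part in the Ccl5 level was not tested.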

How the results depend on the processing

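Between eRT and MYC spinal monocytes, edgeR called 0 genes in the reported setting and in 15 of 18 alternatives, which include each tumor left out (each 0 genes), while DESeq2 called 3, testing every gene with a UMI called 57 (25 higher and 32 lower in eRT, many at 0 in 1 type), and monocytes with all 3 of the genes called 28 (24 higher, 4 lower), with 2 MYC spinal tumors and 1 eRT tumor, whose spread is assumed to be that of the others. No paired analysis was possible because every tumor came from another mouse and the tumor numbers are only names. For the interaction, 5 genes (F13a1 among them, as in some counts below) were called with the tumor as a block and 0 with no replicate block. DESeq2 called 3, a limit of 5 C1q UMIs per 10000 gave 0, leaving out monocytes with markers of other cells gave 3, and leaving out those with granule UMIs gave 3. Leaving out 1 tumor gave 0 to 15 genes: 15 without MYC spinal tumor 1, 1 without MYC spinal tumor 3, 3 without eRT tumor 1, 8 without eRT tumor 2 and 0 without eRT tumor 3. MYC spinal tumor 2 is not in this model and was not left out. The other 6 alternatives gave 4 to 7, and monocytes with all 3 genes gave no value. Why counts moved was not tested. The difference in the share of kept cells kept its sign except without MYC spinal tumor 2, at 1.41 points, with a range of -6.36 to 1.41 over tumors left out, and that of myeloid cells kept it in all 13 alternatives. Of the values of single named genes, 23 interaction values lost and 2 gained the threshold, 8 values between tumor types gained it, and Igfbp4, not past the threshold, turned from -4.80 to 3.755 without MYC spinal tumor 3 (-9.92 to 3.755 over tumors left out). Depth limits eRT tumor 3 most, where 3 UMIs are 204 CPM.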
